A study of Mus musculus with 12 samples.

Results

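The genes described here drive or mark the cell cycle, 60 genes in all. Of these, 19 control the G1 phase, 16 prepare or carry out S phase and 25 act in the G2 phase and mitosis. They were taken from Affymetrix mouse arrays through the platform annotation, as every probe set with a listed gene as its single symbol. This gave 143 probe sets for 59 of the 60 genes, out of 18193 genes named in this way. The remaining gene, Ccnb1 (cyclin B1), had no probe set with its symbol alone and has no value here. All 59 genes passed the filter on low values, which left 12280 genes in all.

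The arrays measured total RNA of mouse embryonic stem cells on the way to neurons, with 3 arrays in each of 4 groups and 12 arrays in all. HM1 at day 4 and HM1 at day 6 were HM1 cells, an embryonic stem cell line deficient in Hprt, at 4 and 6 days of neuronal differentiation. CAG150 at day 4 and CAG150 at day 6 were cells of the line CAG150 at the same days. The series title gives this line expanded CAG repeats, and as far as the study is known these are in the huntingtin gene, Htt. The labels name no other allele, agent or medium, and whether CAG150 was derived from HM1 is not given in them. Each kind of cell was represented by 1 line. The labels do not say that the arrays of a group came from separate cultures, so a p-value here weighs a difference against a spread that may be technical. The titles set the day of each array, because the description of the later HM1 samples names day 4 as well.

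A cell enters the cycle through G1, where D-type cyclins with Cdk4 or Cdk6 and then E-type cyclins with Cdk2 phosphorylate the retinoblastoma protein and its relatives and so release the E2F transcription factors. E2F factors switch on the genes of the S phase class. Their products load the Mcm helicase on origins before S phase, copy DNA and make nucleotides. The genes of G2 and mitosis follow, led by cyclin B with Cdk1. Stem cells in culture cycle fast with a short G1 phase, and neurons leave the cycle for good as they form.

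Array medians lay between 19.2 and 25.9 intensity units, and log2 values of arrays of a group correlated at 0.9897 to 0.9925 across genes. Markers bore out the label of neuronal differentiation: 15 of 16 neuron markers rose from day 4 to day 6 in each line. Their summed intensity went from 5281 to 5448 units at day 4 to 16994 to 19274 units at day 6 in HM1, and from 4305 to 4775 units to 24418 to 25504 units in CAG150. At day 4 the sum was thus lower in CAG150. Gene by gene, 6 of the 16 were higher in CAG150 at that day and 2 were lower, with a median difference of 0.23. Of all genes, 7.87% and 7.92% were. The summed intensity of 13 pluripotency markers was 8224 to 9601 units in HM1 at day 4 and 7641 to 8109 units at day 6, against 5801 to 5966 units and 4984 to 5278 units in CAG150. Gene by gene, these markers went both ways with days. In HM1 4 rose and 3 fell, with a median difference of 0.08, and in CAG150 5 rose and 3 fell, with a median of 0.19. Markers of other cell types were also read. The summed intensity of 12 neural progenitor markers (of 13 listed) was 9572 to 11396 units in HM1 at day 4 and 21328 to 23201 units at day 6. In CAG150 it was 11633 to 12216 units and 22654 to 23857 units. Of these 12 markers, 9 rose and 2 fell with days in HM1, and 10 rose and 1 fell in CAG150. The summed intensity of 12 smooth muscle and fibroblast markers was 4422 to 5017 units in HM1 at day 4 and 5791 to 6985 units at day 6, against 770 to 836 units and 420 to 456 units in CAG150. That of 12 endoderm markers was 2388 to 2531 units and 2883 to 3183 units in HM1, against 937 to 998 units and 1058 to 1210 units in CAG150. Of these lists, Postn, Pdgfrb, Afp, Ttr and Amn lay below the filter on low values. The part that these cells had in any result given here was not tested.

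Most genes of S phase and many of mitosis fell from day 4 to day 6 in both lines, while genes of G1 control moved both ways. A gene was taken to have changed at an adjusted p under 0.05 in limma (Benjamini-Hochberg over the 12280 genes), and differences are on the scale of log2(intensity + 16), which understates the change of dim genes. In HM1, 22 of the 59 genes were lower at day 6 and 8 were higher, where 18.5% and 20.4% of all genes tested did so. In CAG150 they were 32 and 8, where 21.9% and 22.5% of all genes did so. Counting either direction, 30 members passed in HM1 and 40 in CAG150, against 38.9% and 44.4% of all genes. Of the genes that fell, 21 were the same in both lines, which is 21 of 22 in HM1 and 21 of 32 in CAG150. The matching share over all genes that fell was not counted, so this overlap is not shown to be particular to these genes. Both day comparisons use different arrays but the same fit. In bulk samples, fewer cycling cells and less of these RNAs per cell cannot be told apart.

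By class, 10 of 16 S phase genes fell in HM1 and 12 of 16 in CAG150, and none rose. Their median difference was -0.39 in HM1 and -0.40 in CAG150, where the medians of all genes were 0.00 and 0.00. Of the 24 mitotic genes tested, 9 fell and 1 rose in HM1, and 15 fell and 2 rose in CAG150, with medians of -0.21 and -0.27. Of the 19 G1 genes, 7 rose and 3 fell in HM1, with a median of 0.19, and 6 rose and 5 fell in CAG150, with a median of -0.12. The S phase genes were the most uniform of the classes: 15 of 16 had a negative difference in each line, and 15 of 16 in HM1 and 12 of 16 in CAG150 were lower on every day 6 array than on every day 4 array. Of all genes tested, 24.3% and 27.6% were lower in that way. Over all members, 30 were lower and 10 higher without overlap in HM1, and 35 and 10 in CAG150, where 24.8% and 27.4% of all genes were higher in that way.

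**Figure D1:**
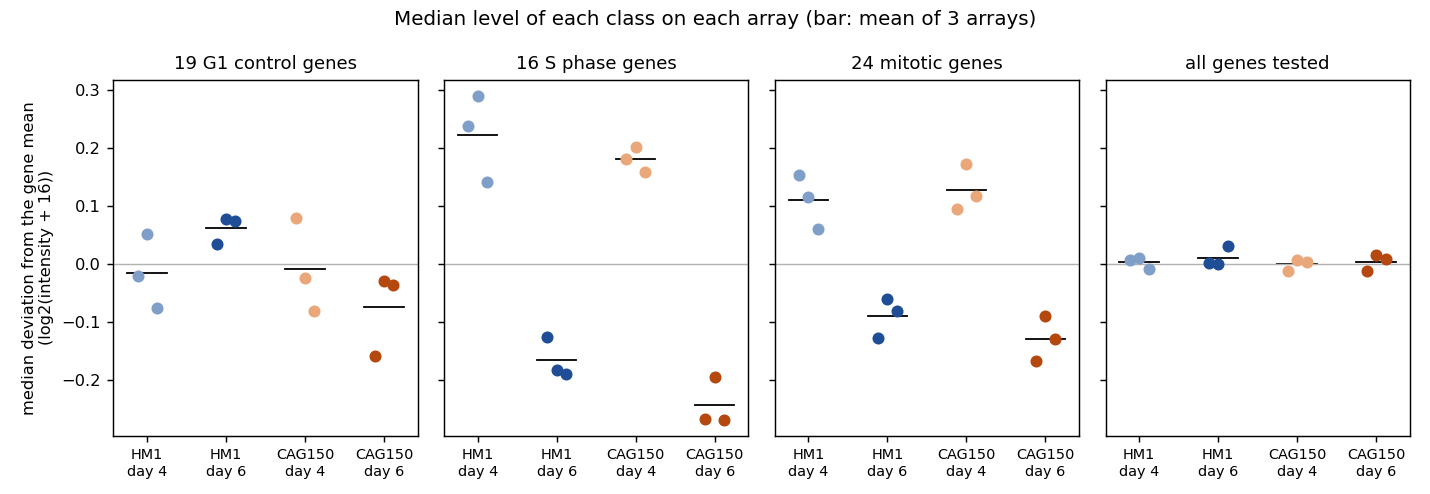
Median over the genes of each class of the log2 level on an array, relative to each gene's mean over all 12 arrays, with 1 point for each array in the 4 groups and all 12280 genes for comparison. S phase genes lay between 0.14 and 0.29 on the day 4 arrays and between -0.27 and -0.13 on the day 6 arrays, mitotic genes between 0.06 and 0.17 and between -0.17 and -0.06, and G1 genes showed no such separation.

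Between the lines, fewer genes of the cycle differed. At day 4, 6 of 59 were higher in CAG150 than in HM1 and 1 was lower, where 7.87% and 7.92% of all genes were. At day 6, 5 were higher and 6 were lower, where 10.1% and 11.2% of all genes were. In either direction, 15.8% and 21.4% of all genes passed at day 4 and day 6. By overlap of the arrays alone, 11 members were higher and 10 lower at day 4, against 17.3% and 17.1% of all genes, and 9 were higher and 17 lower at day 6, against 18.8% and 19.8%. Of the 18 calls at both days, 14 were of G1 genes. No S phase gene passed at day 6 and no mitotic gene at day 4 in limma, although 4 of each did so at an unadjusted p under 0.05. The change from day 4 to day 6 differed between the lines, tested as an interaction, for 3 genes, all of G1 control and all with the lower change in CAG150: Ccnd1, Ccnd2 and Cdk6. Of all genes tested, 3.61% passed that test, 2.03% with a lower and 1.58% with a higher change in CAG150. No S phase gene and no mitotic gene passed the interaction in limma, with 0 and 1 at an unadjusted p under 0.05.

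The promoters of these genes are shown because the classes are known for different promoter elements. E2F factors bind sites such as TTTCCCGC, TTTGGCGC and TTTCGCGC. Many mitotic genes carry the cell cycle homology region, TTTGAA, and CCAAT boxes bound by NF-Y. The windows were taken from RefSeq on build GRCm38.p6 and run from 250 bases before to 50 bases after a transcription start. They were searched for these letters on both strands. The table used held 49 of the 60 genes, with 55 windows. The 250 bases before the start of 8 of them are given 5′ to 3′ on the gene's own strand, with matches in capitals (a match on the opposite strand reads as its reverse complement, such as ATTGG for CCAAT).

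Ccne1: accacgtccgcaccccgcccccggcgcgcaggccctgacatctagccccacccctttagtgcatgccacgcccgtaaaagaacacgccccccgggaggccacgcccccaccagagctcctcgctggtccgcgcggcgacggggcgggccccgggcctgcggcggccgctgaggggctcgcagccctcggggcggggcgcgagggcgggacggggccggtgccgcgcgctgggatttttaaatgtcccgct

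Rbl2: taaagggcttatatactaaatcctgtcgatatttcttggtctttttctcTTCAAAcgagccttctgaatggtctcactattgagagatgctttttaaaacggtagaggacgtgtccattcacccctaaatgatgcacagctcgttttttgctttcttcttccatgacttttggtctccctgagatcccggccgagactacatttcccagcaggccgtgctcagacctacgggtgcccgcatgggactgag

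Mcm10: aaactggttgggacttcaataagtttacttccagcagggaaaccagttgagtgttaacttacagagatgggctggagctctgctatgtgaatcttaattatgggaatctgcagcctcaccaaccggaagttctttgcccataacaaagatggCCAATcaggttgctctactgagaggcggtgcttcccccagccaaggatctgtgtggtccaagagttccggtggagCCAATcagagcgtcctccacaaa

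Cdt1: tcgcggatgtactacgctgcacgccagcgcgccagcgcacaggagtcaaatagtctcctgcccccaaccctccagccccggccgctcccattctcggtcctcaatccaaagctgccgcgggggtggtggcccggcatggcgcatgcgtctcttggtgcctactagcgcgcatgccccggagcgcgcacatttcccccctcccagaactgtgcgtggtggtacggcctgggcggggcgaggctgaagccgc

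Mcm6: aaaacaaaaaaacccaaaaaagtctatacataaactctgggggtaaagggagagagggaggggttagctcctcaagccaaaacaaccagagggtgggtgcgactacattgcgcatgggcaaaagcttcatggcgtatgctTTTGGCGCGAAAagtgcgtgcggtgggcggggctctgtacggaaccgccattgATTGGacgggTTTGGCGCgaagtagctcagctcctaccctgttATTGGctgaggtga

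Nek2: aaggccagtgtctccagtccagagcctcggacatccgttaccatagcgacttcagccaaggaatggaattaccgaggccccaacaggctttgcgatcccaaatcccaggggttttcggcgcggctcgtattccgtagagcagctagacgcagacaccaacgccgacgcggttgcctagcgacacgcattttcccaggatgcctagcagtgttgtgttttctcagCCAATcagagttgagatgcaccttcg

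Bub1: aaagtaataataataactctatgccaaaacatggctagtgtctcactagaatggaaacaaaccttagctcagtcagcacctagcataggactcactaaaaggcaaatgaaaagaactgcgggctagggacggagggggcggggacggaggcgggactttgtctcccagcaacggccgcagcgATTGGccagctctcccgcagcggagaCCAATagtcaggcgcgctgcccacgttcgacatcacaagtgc

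Cdk1: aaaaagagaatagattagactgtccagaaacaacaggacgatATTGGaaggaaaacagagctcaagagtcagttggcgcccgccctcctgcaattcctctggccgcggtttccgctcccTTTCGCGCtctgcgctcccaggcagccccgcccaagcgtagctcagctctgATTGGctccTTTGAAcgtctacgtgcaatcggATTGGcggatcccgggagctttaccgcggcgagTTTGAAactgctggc

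Ccne1, Rbl2, Mcm10, Cdt1, Nek2 and Bub1 were chosen for a large day difference in their class, and Mcm6 and Cdk1 after their matches had been seen. They lie at chr7:38107491-38107740 on the minus strand (Ccne1), chr8:91069807-91070056 on the plus strand (Rbl2), chr2:5012792-5013041 on the minus strand (Mcm10), chr8:122567765-122568014 on the plus strand (Cdt1), chr1:128359706-128359955 on the minus strand (Mcm6), chr1:191821223-191821472 on the plus strand (Nek2), chr2:127831860-127832109 on the minus strand (Bub1) and chr10:69352913-69353162 on the minus strand (Cdk1). The Mcm6 window holds 3 E2F matches, at -110, -106 and -47 from the start, of which the first overlap in the run TTTGGCGCGAAA, and 2 CCAAT boxes. That of Cdk1 holds 2 TTTGAA matches at -71 and -15, 3 CCAAT boxes and 1 E2F match at -131. The Mcm10 stretch has CCAAT at -98 and -23, that of Bub1 at -68 and -42, and that of Nek2 at -26. The Rbl2 stretch has TTTGAA on the opposite strand at -201. The Ccne1 and Cdt1 stretches hold none of these letters, and the Cdt1 window has an E2F match 33 bases after the start.

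Counted over windows, TTTGAA occurred in 13 of 21 mitotic windows (61.9%), in 2 of 15 S phase windows (13.3%) and in 4 of 19 G1 windows (21.1%), against 17.9% of all 32851 promoter windows. A CCAAT box occurred in 85.7%, 73.3% and 52.6% of these, against 37.4% of all. An E2F match occurred in 1 mitotic window (4.76%), in 6 S phase windows and in 5 G1 windows (26.3%), against 1.84% of all. Both TTTGAA and a CCAAT box were in 61.9% of the mitotic windows, 13.3% of the S phase windows and 15.8% of the G1 windows, against 6.95% of all. A match describes the letters of a window and is not a measured binding site. Some genes have more than 1 window, and these overlap in part.

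Among the G1 genes, the D-type cyclins, which start the passage through G1 in response to outside signals, passed in each of the 5 comparisons with at least 1 member. Ccnd2 (cyclin D2) read 1129, 1230 and 1108 intensity units in HM1 at day 4 and 3082, 3210 and 3173 at day 6. In CAG150 it read 2085, 1983 and 1743 at day 4 and 1678, 1822 and 1834 at day 6. The HM1 arrays of day 6 were the highest and those of day 4 the lowest, and CAG150 lay between them at both days. Ccnd2 rose by 1.44 ± 0.09 in HM1, which is 2.71-fold (adjusted p = 9.9e-08), and its difference in CAG150 was -0.12 ± 0.09 (adjusted p = 0.29). CAG150 was higher at day 4, by 0.73 ± 0.09 (adjusted p = 0.00011), and lower at day 6, by -0.82 ± 0.09 (adjusted p = 3.1e-05). The interaction was -1.56 ± 0.12 (adjusted p = 3.6e-05), and all 7 probe sets of Ccnd2 passed it with values from -1.74 to -1.36.

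Ccnd1 (cyclin D1) fell in CAG150 and not detectably in HM1. It read 1597, 1969 and 1534 units in HM1 at day 4 and 1452, 1575 and 1434 at day 6, which overlap. It read 1784, 1479 and 1638 units in CAG150 at day 4 and 859, 815 and 838 at day 6, which are far apart. The day difference was -0.18 ± 0.10 in HM1 (adjusted p = 0.19) and -0.95 ± 0.10 in CAG150, a 1.93-fold fall (adjusted p = 1.4e-05), with an interaction of -0.76 ± 0.15 (adjusted p = 0.014). The lines did not separate at day 4 (-0.05 ± 0.10, adjusted p = 0.78) and differed at day 6 (-0.82 ± 0.10, adjusted p = 0.00014).

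Ccnd3 (cyclin D3) read 426, 537 and 436 units in HM1 at day 4, 655, 577 and 752 in HM1 at day 6, 369, 434 and 453 in CAG150 at day 4 and 337, 359 and 422 in CAG150 at day 6. HM1 at day 6 stood above the other groups without overlap. It rose in HM1 by 0.49 ± 0.13 (adjusted p = 0.0097), a call that centring the arrays on their medians ended (0.39, adjusted p = 0.053). At day 6 it was lower in CAG150 (-0.80 ± 0.13, adjusted p = 0.00088), and its interaction did not pass (-0.65 ± 0.18, adjusted p = 0.075). All 3 D-type cyclins were lower in CAG150 at day 6, by 0.80 to 0.82 on the log2 scale. The smooth muscle and fibroblast marker sum was lower in CAG150 at day 6 as well (420 to 456 against 5791 to 6985 units). So were the pluripotency sum (4984 to 5278 against 7641 to 8109 units) and the endoderm sum (1058 to 1210 against 2883 to 3183 units). The neuron marker sum was higher (24418 to 25504 against 16994 to 19274 units). The part of these cells was not tested.

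Of their kinase partners, Cdk6 passed between the lines and Cdk4 did not. Cdk6 read 197, 195 and 183 units in HM1 at day 4 and 256, 276 and 335 at day 6, against 104, 111 and 105 at day 4 and 95.9, 95.3 and 97.9 at day 6 in CAG150. Every HM1 array was above every CAG150 array. CAG150 was lower by 0.76 ± 0.09 at day 4 (adjusted p = 0.00015) and by 1.43 ± 0.09 at day 6, which is 2.7-fold (adjusted p = 5.3e-07). Cdk6 rose with days in HM1 (0.55 ± 0.09, adjusted p = 0.00061), its day difference in CAG150 was -0.13 ± 0.09 (adjusted p = 0.30), and the interaction was -0.67 ± 0.13 (adjusted p = 0.015). Cdk4, the other kinase of the D-type cyclins, passed in none of the comparisons. Its group means ran from 2883 ± 19.5 units (SD, n = 3) in CAG150 at day 4 to 3579 ± 206 (SD, n = 3) in HM1 at day 6. Cdk4 also read lower in CAG150 than in HM1 without overlap at each day. At day 4 it read 2861, 2891 and 2897 units against 3421, 3865 and 3062. At day 6 it read 2890, 3320.5 and 3013 against 3519, 3409 and 3808. All 3 of its probe sets were lower at day 6, from -0.39 to -0.22, and 1 passed.

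Ccne1 (cyclin E1), which carries the cell from G1 into S phase, had the largest day difference among the genes that fell. It read 724, 855 and 682 units in HM1 at day 4 and 296, 479 and 405 at day 6, and 634, 672 and 519 in CAG150 at day 4 and 193, 208 and 293 at day 6. In each line, every day 6 array was below every day 4 array. It fell by 0.93 ± 0.18 in HM1 (adjusted p = 0.0015) and by 1.35 ± 0.18 in CAG150, which is 2.55-fold (adjusted p = 7.1e-05). At day 6 CAG150 was lower (-0.72 ± 0.18, adjusted p = 0.014), a call that was lost without replicate 1 of CAG150 at day 6 (adjusted p = 0.058) or without replicate 2 of HM1 at day 6 (0.057).

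Ccne2 (cyclin E2) fell in CAG150, from 398, 397 and 309 to 313, 289 and 298 units (-0.27 ± 0.10, adjusted p = 0.040), and its difference in HM1 was 0.19 ± 0.10 (adjusted p = 0.15). The groups overlap in CAG150, and the call was lost without any 1 of 6 arrays: the 3 of CAG150 at day 6, replicates 1 and 2 of CAG150 at day 4, and replicate 1 of HM1 at day 6 (adjusted p = 0.051 to 0.15). Cdk2, the kinase of cyclin E, passed in no comparison, with day differences of -0.23 ± 0.09 and -0.21 ± 0.09 (adjusted p = 0.055 and 0.063). Cdc25a, the phosphatase that activates Cdk2, fell in CAG150 from 584, 491 and 496 to 369, 424 and 412 units (-0.37 ± 0.11, adjusted p = 0.020), which was lost without replicate 1 of either CAG150 group (adjusted p = 0.084 without that of day 4 and 0.075 without that of day 6).

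The inhibitors of the G1 kinases rose where they changed with days. Cdkn2c (p18Ink4c), which binds Cdk4 and Cdk6, read 33.7, 39.9 and 53.2 units in HM1 at day 4 and 71, 91 and 78.3 at day 6, and 65.5, 68.7 and 60.7 in CAG150 at day 4 and 128, 112 and 149 at day 6. The groups of a line did not overlap, and neither did the lines at either day. It rose by 0.73 ± 0.13 in HM1 (adjusted p = 0.00084) and by 0.84 ± 0.13 in CAG150 (adjusted p = 0.00022), and was higher in CAG150 by 0.49 ± 0.13 at day 4 (adjusted p = 0.024) and by 0.60 ± 0.13 at day 6 (adjusted p = 0.0062). The call at day 4 was lost without replicate 1 or 2 of either day 4 group (adjusted p = 0.065 to 0.092), under quantile normalization (0.41, adjusted p = 0.074) and with the arrays centred on their medians (0.42, adjusted p = 0.068).

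Cdkn2d (p19Ink4d), of the same family, read 188, 223 and 215 units at day 4 and 300.5, 313 and 296 at day 6 in HM1, and 188, 203 and 229.6 at day 4 and 349, 314 and 347 at day 6 in CAG150. Each day 6 group was above its day 4 group, while the lines overlapped at day 4. It rose by 0.51 ± 0.09 in HM1 and 0.67 ± 0.09 in CAG150 (adjusted p = 0.0010 and 0.00010). Cdkn1b (p27Kip1), an inhibitor of cyclin E with Cdk2, read 277, 519 and 367 units at day 4 and 425, 316 and 484 at day 6 in HM1, which overlap, and 364, 306 and 391 units at day 4 and 427, 675 and 594 at day 6 in CAG150, which do not. Its rise in CAG150 (0.64 ± 0.22, adjusted p = 0.034) was lost without replicate 1 or 2 of CAG150 at day 4 or replicate 2 or 3 of CAG150 at day 6 (adjusted p = 0.064 to 0.13), and with the arrays centred on their medians (0.54, adjusted p = 0.070).

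The pocket proteins, which hold E2F factors in check, rose or were higher in CAG150 wherever they passed. Rb1, the retinoblastoma gene, read 391, 302 and 343 units at day 4 and 549.9, 451 and 491 at day 6 in HM1, and 352, 369 and 352 at day 4 and 558, 549 and 555 at day 6 in CAG150. It rose in both lines without overlap, by 0.51 ± 0.10 (adjusted p = 0.0016) and 0.61 ± 0.10 (adjusted p = 0.00033).

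Rbl2 (p130), the pocket protein of resting cells, was dim at 52.9, 28.7 and 28.3 units in HM1 at day 4, 62.5, 48.7 and 43.9 in HM1 at day 6 and 46.6, 39.2 and 37.6 in CAG150 at day 4, and read 85.6, 96.9 and 102 in CAG150 at day 6. Only the last group stood clear of the others. It rose in CAG150 by 0.96 ± 0.16 (adjusted p = 0.00038), with 0.39 ± 0.16 in HM1 (adjusted p = 0.075), and the interaction did not pass (0.57 ± 0.23, adjusted p = 0.22). At day 6 it was higher in CAG150 by 0.72 ± 0.16 (adjusted p = 0.0070). Rbl1 (p107), the pocket protein of cycling cells, read 317, 296 and 310.0 units at day 4 and 359.9, 375 and 365 at day 6 in HM1 and 428, 417 and 434 at day 4 and 481, 449 and 599 at day 6 in CAG150. It was higher in CAG150 without overlap by 0.45 ± 0.10 at day 4 and 0.45 ± 0.10 at day 6 (adjusted p = 0.0080 and 0.0060).

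Of the E2F factors, E2f2, an activator, rose in both lines from a low level: it read 38.7, 36.6 and 40.8 units at day 4 and 57.4, 64.6 and 67.9 at day 6 in HM1, and 64.7, 58.5 and 52.6 at day 4 and 77.5, 81.7 and 113 at day 6 in CAG150. Its differences were 0.53 ± 0.12 and 0.50 ± 0.12 with days (adjusted p = 0.0035 and 0.0040), and 0.45 ± 0.12 and 0.42 ± 0.12 between the lines (adjusted p = 0.023 and 0.025). The line calls were lost at day 4 without replicate 1 or 2 of either day 4 group (adjusted p = 0.055 to 0.085), and at day 6 without replicate 3 of CAG150 or replicate 1 or 2 of HM1 at that day (0.053 to 0.097). They were also lost under quantile normalization (0.065 and 0.053), with arrays centred on their medians (0.060 and 0.063), with the mean of the probe sets at day 4 (0.060) and with the 2 groups alone at day 6 (0.066).

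E2f3, also an activator, fell in both lines, from 463, 438 and 479 to 407, 369 and 374 units in HM1 and from 466, 441 and 475 to 390.3, 372 and 380.4 in CAG150, without overlap. The differences were small, at -0.25 ± 0.08 and -0.26 ± 0.08 (adjusted p = 0.020 and 0.014), and the call in HM1 was lost without replicate 3 of HM1 at day 4 or replicate 2 or 3 of HM1 at day 6 (0.060 to 0.067). With the mean of its probe sets E2f3 passed in neither line (-0.019 and -0.26, adjusted p = 0.91 and 0.080). E2f8, a repressor of E2F targets, fell in HM1 from 159, 134 and 144 to 104, 82.3 and 113 units (-0.49 ± 0.12, adjusted p = 0.0060), with -0.24 ± 0.12 in CAG150 (adjusted p = 0.11). E2f1 passed in none of the comparisons, at group means of 129.6 ± 18.7 to 149 ± 11.8 units (SD, n = 3).

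**Figure D2:**
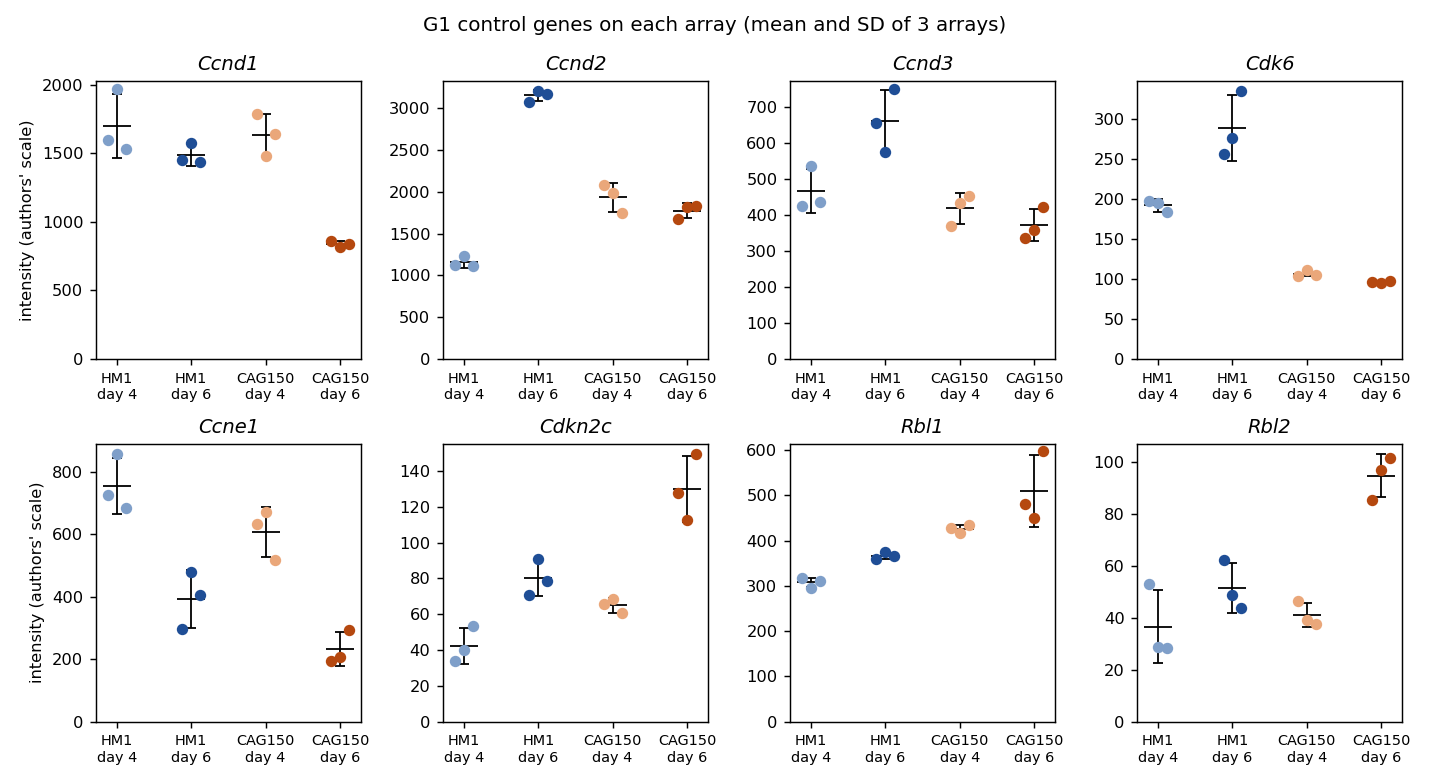
Intensity on each array for chosen G1 genes in HM1 and CAG150 at day 4 and day 6, with a point for each array and a line at each group mean, on a linear axis from 0. Ccnd2 was at 3082 to 3210 units on the HM1 arrays of day 6, above all others, Ccnd1 was at 815 to 859 units on the CAG150 arrays of day 6, below all others, and Ccne1 was lower at day 6 in both lines.

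Among the S phase genes, those that load the helicase act first, before S phase begins. Cdt1 and Cdc6 place the Mcm2 to Mcm7 ring on origins, geminin (Gmnn) blocks Cdt1 once copying has begun, and Mcm10 and Cdc45 help to start the helicase. Mcm10 read 514, 532 and 509 units in HM1 at day 4 and 298, 321 and 293 at day 6, and 476, 554 and 533 at day 4 and 266, 282 and 306 at day 6 in CAG150. The days separated fully and the lines overlapped at both. It fell by 0.74 ± 0.09 in HM1 and by 0.84 ± 0.09 in CAG150 (adjusted p = 2.6e-05 and 7.4e-06), 1.67-fold and 1.78-fold, which was the most of the S phase genes in each line.

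Cdt1 read 3028, 3374 and 2889 units in HM1 at day 4 and 1830, 2059 and 1862 at day 6, and 3627, 3953 and 3810 at day 4 and 2157, 2135 and 2118 at day 6 in CAG150. It fell by 0.69 ± 0.08 and 0.82 ± 0.08 (adjusted p = 4.3e-05 and 7.4e-06). Cdc6 read 838, 869 and 884 units at day 4 and 515, 644 and 506 at day 6 in HM1, and 1013, 1003 and 1051 at day 4 and 623, 627 and 645 at day 6 in CAG150, and fell by 0.63 ± 0.09 and 0.68 ± 0.09 (adjusted p = 0.00018 and 7.7e-05). For both genes, CAG150 read above HM1 on every array of a day, except for Cdc6 at day 6, where replicate 2 of HM1 was at the level of CAG150. Cdc6 did not pass between the lines at either day. Cdt1 lies on chromosome 8 and Cdc6 on chromosome 11, where all genes tested were shifted upward in CAG150. The medians were 0.20 and 0.17 at day 4 and 0.24 and 0.23 at day 6.

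Gmnn, the brake on Cdt1, fell along with it, from 1499, 1657 and 1487 to 1085, 1234 and 1063 units in HM1 and from 1592, 1588 and 1630 to 1242, 1142 and 1203 in CAG150, without overlap (-0.45 ± 0.08 and -0.42 ± 0.08, adjusted p = 0.0010 and 0.0014). Cdc45 passed in neither line, at -0.30 ± 0.14 and -0.33 ± 0.14 (adjusted p = 0.11 and 0.069).

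Of the 6 subunits of the Mcm2 to Mcm7 helicase, 5 fell in HM1 and 6 in CAG150. Mcm3 read 2110, 2229 and 2274 units at day 4 and 1466, 1482 and 1504 at day 6 in HM1, and 1835, 1807 and 1952 at day 4 and 1339, 1214 and 1407 at day 6 in CAG150 (-0.57 ± 0.08 and -0.49 ± 0.08, adjusted p = 0.00014 and 0.00029). Mcm5 read 4619, 5237 and 4386 units at day 4 and 3203, 3251 and 3237 at day 6 in HM1, and 4764, 4580 and 4370 at day 4 and 3090, 3318 and 3313 at day 6 in CAG150 (-0.55 ± 0.08 and -0.49 ± 0.08, adjusted p = 0.00025 and 0.00042). In both genes the days stood fully apart in each line.

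Mcm6 read 2575, 2664 and 2414 units at day 4 and 1935, 1851 and 2101 at day 6 in HM1, and 2622, 2673 and 2496 at day 4 and 1663, 1783 and 1733 at day 6 in CAG150 (-0.38 ± 0.08 and -0.58 ± 0.08, adjusted p = 0.0027 and 8.0e-05). Mcm2 read 1602, 1518 and 1567 units at day 4 and 1229, 1113 and 1214 at day 6 in HM1, and 1421, 1396 and 1437 at day 4 and 1024, 1096 and 1115 at day 6 in CAG150, with the same difference in both lines (-0.39 ± 0.08 and -0.39 ± 0.08, adjusted p = 0.0013 and 0.0011). Mcm4 fell by 0.33 ± 0.08 and 0.36 ± 0.08 (adjusted p = 0.0074 and 0.0036). Mcm7 was lower on every day 6 array of each line, and passed in CAG150 (-0.39 ± 0.11, adjusted p = 0.010) and not in HM1 (-0.28 ± 0.11, adjusted p = 0.056). Its interaction was -0.11 ± 0.15 (adjusted p = 0.79), so the lines were not shown to differ. Of its 4 probe sets, the 3 dimmer ones passed as lower in HM1, at down to -0.43.

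The genes of copying and nucleotide supply did not all change. Tk1, thymidine kinase, fell in both lines, from 646, 667 and 646 to 443, 497 and 493 units in HM1 and from 846, 806 and 761 to 527, 593 and 545 in CAG150, without overlap (-0.44 ± 0.08 and -0.52 ± 0.08, adjusted p = 0.0011 and 0.00024). Rrm2, the regulated subunit of ribonucleotide reductase, fell in CAG150 from 5111, 5093 and 5123 to 4243, 4180 and 4081 units (-0.29 ± 0.08, adjusted p = 0.0085), with -0.18 ± 0.08 in HM1 (adjusted p = 0.086). Its partner subunit Rrm1 gave 0.03 ± 0.13 and 0.06 ± 0.13 and passed in neither.

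Pcna, the sliding clamp of the DNA polymerases, read 8861, 8875 and 7641 units in HM1 at day 4 and 7557, 7377 and 7281 at day 6, and 7372, 8065 and 7821 at day 4 and 6385, 7409 and 6188 at day 6 in CAG150. The days did not overlap in HM1 and did in CAG150, through replicate 2 of day 6. Its differences of -0.19 ± 0.09 and -0.22 ± 0.09 did not pass (adjusted p = 0.13 and 0.070), although without that array the CAG150 difference passed (adjusted p = 0.025). With the arrays centred on their medians, Pcna passed as lower in both lines (-0.29 and -0.32, adjusted p = 0.029 and 0.016). Tyms, thymidylate synthase, was dim at group means of 38.6 ± 6.88 to 59.4 ± 9.06 units (SD, n = 3) and passed in no comparison.

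Of the mitotic genes, Nek2, a kinase that splits the centrosomes, fell the most in each line. It read 684, 705 and 664 units in HM1 at day 4 and 345, 412 and 402 at day 6, and 725, 669 and 832 at day 4 and 427, 391 and 415 at day 6 in CAG150. The days were fully apart in each line and the lines overlapped. It fell by 0.80 ± 0.10 and 0.82 ± 0.10, which is 1.74-fold and 1.77-fold (adjusted p = 3.9e-05 and 2.5e-05).

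Cdk1, the kinase that drives mitosis, read 2029, 2224 and 2022 units in HM1 at day 4 and 1511, 1636 and 1547 at day 6, and 1750, 1809 and 1879 at day 4 and 1247, 1229 and 1279 at day 6 in CAG150. All 4 groups stood apart, with HM1 above CAG150 at each day. Cdk1 fell by 0.41 ± 0.08 and 0.53 ± 0.08 (adjusted p = 0.00098 and 0.00012), and it was lower in CAG150 at day 6 (-0.32 ± 0.08, adjusted p = 0.010) and not past the threshold at day 4 (-0.20 ± 0.08, adjusted p = 0.091). Its cyclin partners had smaller differences. Ccnb2 (cyclin B2) fell in CAG150 from 1262, 1345 and 1476 to 1075, 1167 and 1140 units (-0.27 ± 0.08, adjusted p = 0.020), which was lost without replicate 3 of day 4 (0.081) or replicate 1 of day 6 (0.070), and under quantile normalization (0.051). Ccna2 (cyclin A2), which acts in S phase and G2, had a difference of -0.22 ± 0.08 there (adjusted p = 0.048), and this was lost without any 1 of 9 arrays: all but replicate 2 of HM1 at day 4, replicate 2 of HM1 at day 6 and replicate 2 of CAG150 at day 6 (adjusted p = 0.052 to 0.16). Quantile normalization ended it as well (-0.15, adjusted p = 0.16).

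The regulators of Cdk1 went different ways. Wee1, the kinase that holds Cdk1 inactive, fell from 464, 533 and 516 to 321, 347 and 338 units in HM1 (-0.57 ± 0.10, adjusted p = 0.00053) and from 386, 441 and 435 to 351, 299.6 and 363 in CAG150 (-0.31 ± 0.10, adjusted p = 0.020). The call in CAG150 was lost without replicate 2 or 3 of CAG150 at day 4 or replicate 2 of CAG150 at day 6 (adjusted p = 0.060 to 0.087). Cdc25b, a phosphatase that activates Cdk1, rose in CAG150 from 166, 158 and 177 to 225, 241 and 277 units without overlap (0.52 ± 0.12, adjusted p = 0.0026). In HM1 it read 186, 189.7 and 226 at day 4 and 199.6, 173 and 229 at day 6, which overlap (-0.00 ± 0.12, adjusted p = 0.98), and the interaction was 0.53 ± 0.16 (adjusted p = 0.11). Cdc25c, its relative, passed in no comparison.

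Of the mitotic kinases, Plk1 read 894, 905 and 871 units at day 4 and 653, 596 and 746 at day 6 in HM1, and 834, 914 and 884 at day 4 and 597, 657 and 705 at day 6 in CAG150, and had the same difference in both lines (-0.42 ± 0.10 and -0.42 ± 0.10, adjusted p = 0.0042 and 0.0033). Aurka (Aurora A), the kinase of the spindle poles, fell from 965, 946 and 1015 to 763, 774 and 811 units in HM1 and from 903, 960.4 and 939.7 to 759.8, 746 and 756 in CAG150 (-0.31 ± 0.07 and -0.30 ± 0.07, adjusted p = 0.0043 and 0.0043). The days did not overlap for either gene. With the mean of the gene's probe sets, Aurka passed in neither line (-0.26 and -0.12, adjusted p = 0.097 and 0.46). Its other probe set was dim, at 2.69 to 22.4 units. Aurkb (Aurora B), of the chromosomal passenger complex, passed in no comparison (-0.07 ± 0.12 and -0.13 ± 0.12 with days), while Birc5 (survivin) of the same complex fell by 0.36 ± 0.10 in HM1 and 0.38 ± 0.10 in CAG150 (adjusted p = 0.011 and 0.0061). The Birc5 call in HM1 was lost without replicate 1 of HM1 at day 6 (adjusted p = 0.051). Plk4, which starts centriole copying, fell in CAG150 (-0.47 ± 0.10, adjusted p = 0.0017), with -0.22 ± 0.10 in HM1 (adjusted p = 0.092).

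The spindle checkpoint delays the separation of chromosomes until all are attached. Its kinase Bub1 read 1632, 1435 and 1458 units at day 4 and 986, 1146 and 1008 at day 6 in HM1, and 1567, 1513 and 1338 at day 4 and 1000, 962 and 945 at day 6 in CAG150, with the days fully apart (-0.52 ± 0.09 and -0.59 ± 0.09, adjusted p = 0.00079 and 0.00023). With the mean of its probe sets the differences were -0.24 and -0.24 and did not pass (adjusted p = 0.099 and 0.088). The second Bub1 probe set was dim, at 32.5 to 53.2 units. Bub1b, Mad2l1 and Ttk fell in CAG150, by 0.46 ± 0.11, 0.25 ± 0.08 and 0.34 ± 0.10 (adjusted p = 0.0053, 0.026 and 0.014), and did not pass in HM1 (-0.24 ± 0.11, -0.05 ± 0.08 and -0.14 ± 0.10). The Mad2l1 call was lost without any 1 of the 3 CAG150 arrays of day 4 or replicate 1 or 3 of CAG150 at day 6 (adjusted p = 0.051 to 0.084) or under quantile normalization (0.089), and the Ttk call without replicate 2 of CAG150 at day 6 (0.056) or with the mean of its probe sets (-0.13, adjusted p = 0.41). The second Ttk probe set was dim, at 37.1 to 66.2 units. Bub3 gave -0.00 ± 0.08 and 0.09 ± 0.08 and passed in no comparison.

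Cdc20, the activator of the anaphase-promoting complex that the checkpoint blocks, fell by 0.31 ± 0.10 in HM1 and 0.27 ± 0.10 in CAG150 (adjusted p = 0.022 and 0.038). Cenpa, the histone of the centromere, fell by 0.23 ± 0.08 and 0.23 ± 0.08 (adjusted p = 0.043 and 0.040). These calls lay near the threshold. In HM1, the Cdc20 call was lost without replicate 1 or 2 of day 4 or replicate 1 or 3 of day 6 (adjusted p = 0.052 to 0.084). In CAG150 it was lost without replicate 1 or 2 of day 4 or any array of day 6 (0.051 to 0.14). The Cenpa call in HM1 was lost without any 1 of 9 arrays, all but replicate 3 of each day 4 group and replicate 2 of HM1 at day 6 (adjusted p = 0.051 to 0.15), and it turned to 0.10 (adjusted p = 0.53) with the mean of its probe sets. The other Cenpa probe sets were dim, at 1.20 to 23.5 units. In CAG150 the Cenpa call was lost without any 1 of the 6 CAG150 arrays or replicate 3 of HM1 at day 6 (0.051 to 0.13). Cenpe and Cenpf, of the outer kinetochore, passed in no comparison by their brightest probe sets. Quantile normalization ended the calls of Cdc20 (-0.19 in each line, adjusted p = 0.10 and 0.088) and Cenpa (-0.17 in each, adjusted p = 0.090 and 0.087).

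Mki67, the gene of the Ki-67 antigen by which cycling cells are commonly stained, rose from day 4 to day 6. It read 1517, 1200 and 1317 units in HM1 at day 4 and 1636, 1566 and 1680 at day 6, and 1339, 1548 and 1439 at day 4 and 1694, 1793 and 1684 at day 6 in CAG150. In each line every day 6 array was above every day 4 array. The rise came to 0.28 ± 0.10 in HM1 and 0.26 ± 0.10 in CAG150 (adjusted p = 0.036 and 0.045). With the arrays centred on their medians it was 0.17 and 0.16 (adjusted p = 0.19 and 0.22), and with a replicate block the adjusted p was 0.054 and 0.066. The call in HM1 was lost without replicate 2 or 3 of HM1 at day 4 or any HM1 array of day 6 (adjusted p = 0.051 to 0.13). In CAG150 it was lost without any 1 of 9 arrays, all but replicates 1 and 2 of HM1 at day 4 and replicate 2 of CAG150 at day 4 (0.052 to 0.15).

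Top2a, the topoisomerase that untangles sister chromatids, read 3724, 3044 and 2992 units in HM1 at day 4 and 3006, 2810 and 2637 at day 6, and 3734, 4165 and 3414 at day 4 and 3378, 3852 and 3680 at day 6 in CAG150. The days overlapped in each line, and the differences did not pass (-0.20 ± 0.11 and -0.05 ± 0.11, adjusted p = 0.17 and 0.74). With the arrays centred on their medians it passed as lower in HM1 (-0.31, adjusted p = 0.029). Foxm1, a transcription factor of mitotic genes, gave -0.22 ± 0.17 and -0.39 ± 0.17 (adjusted p = 0.34 and 0.082).

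**Figure D3:**
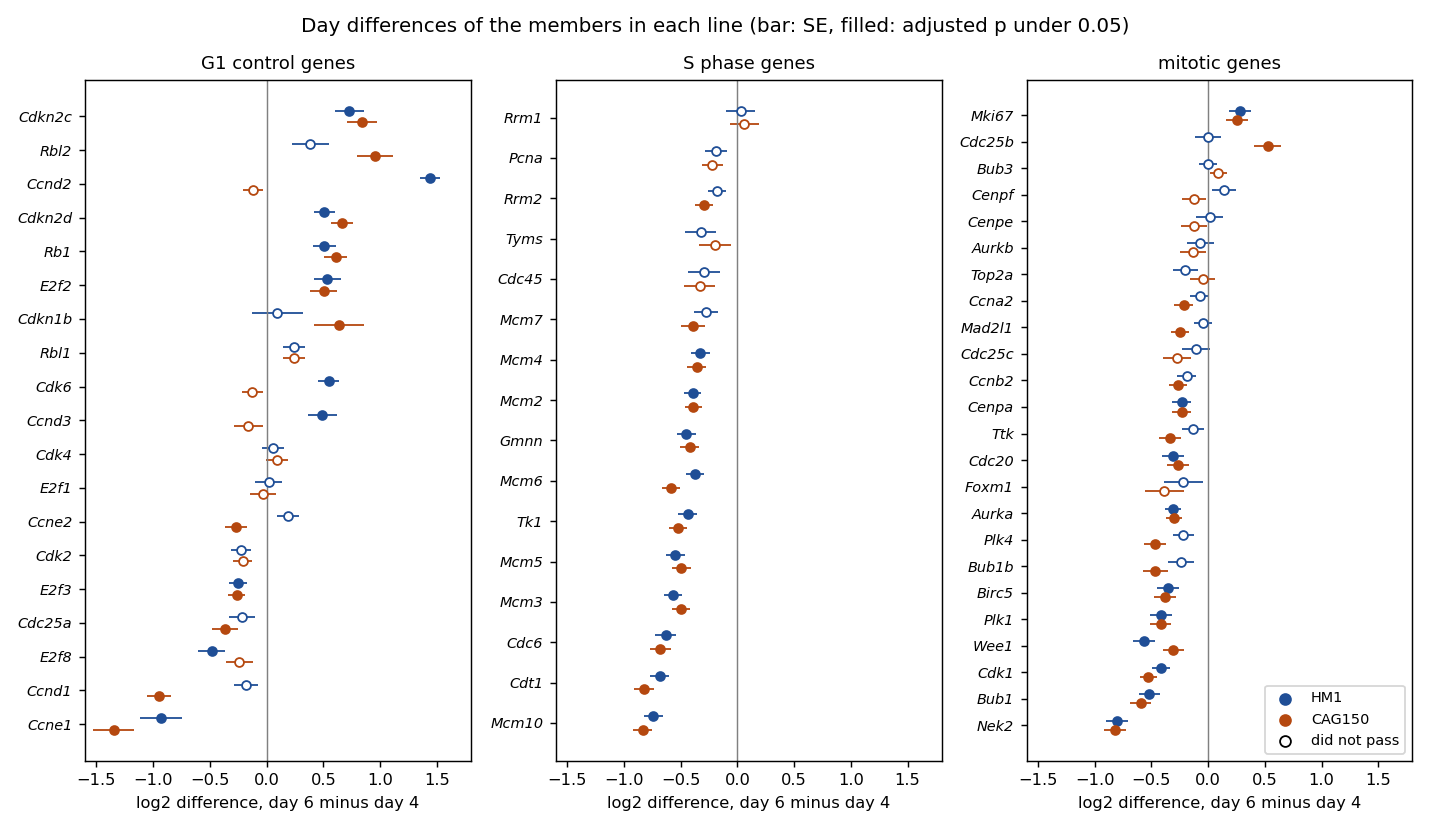
Log2 difference of day 6 minus day 4 for each of the 59 genes by class, in HM1 and in CAG150, with bars of 1 standard error and filled points where the adjusted p was under 0.05. S phase genes lay to the left of 0 in both lines apart from Rrm1, and the G1 genes spread from -1.35 for Ccne1 in CAG150 to 1.44 for Ccnd2 in HM1.

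Most of the line differences have been given with the G1 genes above. At day 4, Cdt1 and Tk1 were higher in CAG150, by 0.29 ± 0.08 and 0.29 ± 0.08 (adjusted p = 0.032 and 0.029), with all 3 CAG150 arrays above all 3 of HM1. At day 6, Top2a was higher by 0.37 ± 0.11 (adjusted p = 0.030). These genes lie on chromosomes 8 (Cdt1) and 11 (Tk1 and Top2a), as said for Cdt1 and Cdc6 above. On these, all genes tested had median line differences of 0.20 and 0.17 at the earlier day and of 0.24 and 0.23 at the later one. With the median of the chromosome subtracted, Cdt1 was at 0.10, Tk1 at 0.12 and Top2a at 0.14, and none passed (adjusted p = 0.50, 0.38 and 0.43). Rbl2, on chromosome 8 and higher in CAG150 at day 6 by 0.72 ± 0.16 (adjusted p = 0.0070), was at 0.48 after this subtraction and did not pass (adjusted p = 0.061). Centring the arrays on their medians also ended the calls of Cdt1 and Tk1 (adjusted p = 0.14 and 0.11).

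The calls of Cdt1, Tk1 and Top2a also turned on single arrays, which that of Rbl2 did not. Cdt1 at day 4 was lost without any 1 of 5 of the 6 day 4 arrays, all but replicate 2 of HM1 (adjusted p = 0.050 to 0.11). Tk1 at day 4 was lost without any but replicate 3 of CAG150 (0.053 to 0.10), and Top2a at day 6 without replicate 2 or 3 of either line (0.071 to 0.10). In all, 4 members passed between the lines at day 4 without replicate 1 or without replicate 2 of HM1 at day 4, and 3 without replicate 1 or without replicate 2 of CAG150 at day 4, against 7 with all arrays.

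**Figure D4:**
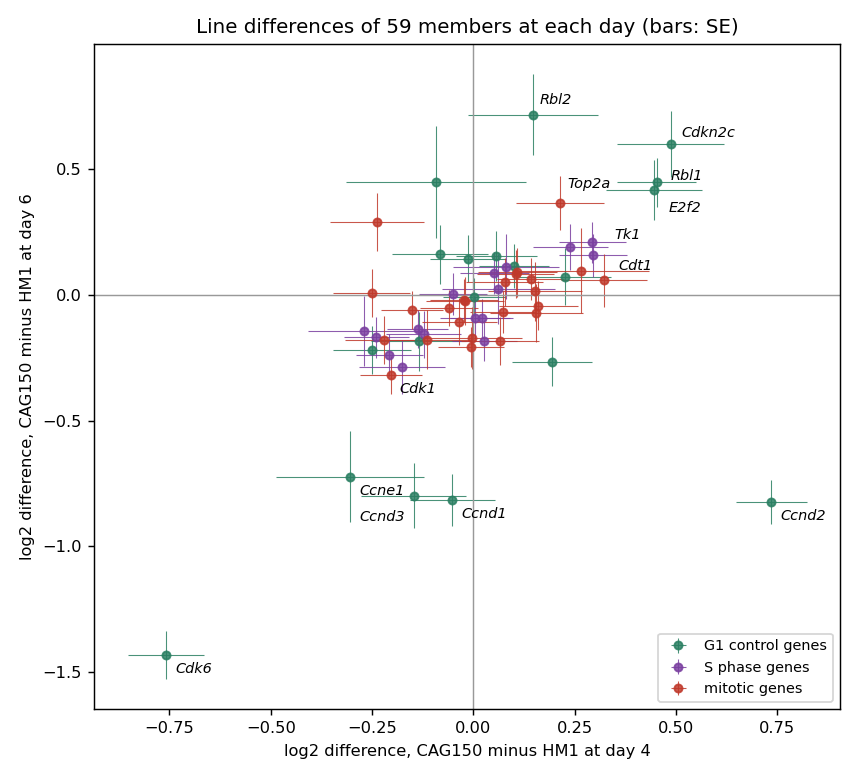
Log2 difference of CAG150 minus HM1 at day 6 against that at day 4 for the 59 genes, coloured by class, with the genes that passed at either day named. Cdk6 was low at both days, Ccnd2 was at 0.73 at day 4 and -0.82 at day 6, and most S phase and mitotic genes lay near 0 at both. The axes use different arrays.

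The scaling of the arrays bears on the balance of rises and falls. Centring each array on its median moved all genes by -0.10 in the day comparisons and by -0.06 in the line comparisons. Under it, 6 members were higher and 33 lower with days in HM1, and 6 and 38 in CAG150. Between the lines, 2 were higher and 2 lower at day 4, and 4 and 9 at day 6.

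Other genes of the same machinery were counted from lists that do not hold the 60 genes. Among all genes tested, 18.5% fell and 20.4% rose with days in HM1, and 21.9% fell and 22.5% rose in CAG150. At day 4, 7.87% of all genes were higher and 7.92% lower in CAG150 than in HM1, and at day 6 10.1% and 11.2% were. Of 37 further replication genes tested (of 39 listed), 24 fell and 1 rose with days in HM1, and 31 fell and 1 rose in CAG150, with medians of -0.36 and -0.45. Pold1, the catalytic subunit of DNA polymerase delta, went from 831 ± 66.6 to 444 ± 48.5 units in HM1 and from 863 ± 49.9 to 397 ± 12.1 in CAG150 (SD, n = 3 each). It fell by 0.88 ± 0.10 and 1.09 ± 0.10 (adjusted p = 1.4e-05 and 1.8e-06). Dut, which keeps uracil out of DNA, fell by 0.71 ± 0.07 and 0.54 ± 0.07 (adjusted p = 9.6e-06 and 7.0e-05), and Orc1 of the origin recognition complex by 0.50 ± 0.08 and 0.81 ± 0.08 (adjusted p = 0.00041 and 6.1e-06). The gene that rose was Rrm2b, the ribonucleotide reductase subunit that also serves resting cells, by 0.60 ± 0.09 and 0.31 ± 0.09 (adjusted p = 0.00014 and 0.012). Between the lines, 6 replication genes were higher and 1 lower in CAG150 at day 4, and 2 and 3 at day 6.

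Of 42 further mitotic genes, 9 fell and 4 rose in HM1, and 18 fell and 3 rose in CAG150, with medians of -0.14 and -0.23. The 9 that fell in HM1 lay near the share of all genes that fell there (18.5%). Espl1, the separase that cuts cohesin, fell by 0.74 ± 0.12 in HM1 and 0.55 ± 0.12 in CAG150 (adjusted p = 0.00033 and 0.0021). Anln, which acts in the cleavage furrow, fell by 0.47 ± 0.08 and 0.66 ± 0.08 (adjusted p = 0.00051 and 2.9e-05). Sass6, a scaffold of new centrioles, rose by 0.55 ± 0.11 and 0.38 ± 0.11 (adjusted p = 0.0021 and 0.016). Between the lines, 3 of these genes were higher and 1 lower in CAG150 at day 4, and 1 and 0 at day 6, each below the share of all genes. By overlap of the arrays alone, 15 were higher and 1 lower at day 4, against 17.3% and 17.1% of all genes. At day 6, 6 were higher and 6 lower in that way, against 18.8% and 19.8%. The difference at day 4 was positive for 32 genes and negative for 10, with a median of 0.13, and the median at day 6 was -0.01.

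Of 24 further G1 genes, 8 rose and 6 fell in HM1, and 6 rose and 8 fell in CAG150, with medians of 0.04 and -0.14. Between the lines, 0 were higher and 3 lower in CAG150 at day 4, and 1 and 9 at day 6. Cdkn1c (p57Kip2), an inhibitor of the G1 kinases, had group means of 806 ± 63.1 units in HM1 at day 4, 2568 ± 140 in HM1 at day 6, 113 ± 14.8 in CAG150 at day 4 and 675 ± 51.5 in CAG150 at day 6 (SD, n = 3 each). It rose by 1.65 ± 0.10 and 2.43 ± 0.10 with days (adjusted p = 1.2e-07 and 3.7e-09), with an interaction of 0.77 ± 0.15 (adjusted p = 0.011). It was lower in CAG150 by 2.67 ± 0.10 at day 4 (adjusted p = 1.9e-08) and by 1.90 ± 0.10 at day 6 (adjusted p = 9.2e-08). Cdkn1a (p21), the inhibitor induced by p53, rose in HM1 (0.74 ± 0.12, adjusted p = 0.00035), with 0.07 ± 0.12 in CAG150 (adjusted p = 0.66) and an interaction of -0.67 ± 0.17 (adjusted p = 0.047). It was lower in CAG150 at day 6 (-1.26 ± 0.12, adjusted p = 1.1e-05).

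Ccng2 (cyclin G2), which is raised in cells that leave the cycle, rose by 1.20 ± 0.10 in HM1 and 1.25 ± 0.10 in CAG150 (adjusted p = 1.1e-06 and 5.9e-07). Mycn and Myc, transcription factors of growth and of stem cells, both fell. Mycn fell by 0.88 ± 0.09 and 1.01 ± 0.09 (adjusted p = 9.5e-06 and 2.0e-06), and Myc by 0.82 ± 0.12 and 1.45 ± 0.12 (adjusted p = 0.00019 and 1.2e-06).

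Most genes were read by more than 1 probe set. Of the 59, 45 had several, and 125 of the 143 probe sets were above the filter. The brightest one stood for its gene. Tested over all probe sets above the filter, 0 of the others passed in the direction opposite to it in any comparison. Probe sets did disagree in size: for Cenpe, a second probe set of a mean of 83.7 units gave 1.10 ± 0.23 between the lines at day 4 (adjusted p = 0.0096), where the brightest, at a mean of 425.6 units, gave 0.15 ± 0.12. For Cenpf, a dim probe set gave 0.90 ± 0.20 in that comparison (adjusted p = 0.014), where the brightest gave 0.32 ± 0.11 (adjusted p = 0.059). In 11 cases in all, another probe set passed where the gene did not: Cenpe and Cenpf between the lines at day 4, Cdc20, Cdk4 and Mcm3 between them at day 6, Cdc25a, Foxm1, Mcm7, Rbl2 and Rrm2 with days in HM1, and Ccnd2 with days in CAG150.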

How the data were processed

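The deposited table holds intensities on a linear scale for 45101 probe sets on 12 arrays; the values themselves show a mean of 150 on each array once 2% of probe sets at each end are left out, so the authors scaled each intensity to that mean. The software that made them is not stated by any label or header. Leaving out 64 control probe sets, 34945 had 1 gene symbol in the platform annotation, 932 several and 9160 none here.

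Intensities were analysed as log2(intensity + 16), from the deposited values. A gene was read from its brightest probe set and kept above the 40th percentile of mean signal (intensity 11.9). A mean for each group was fitted with limma 3.58.1 in R 4.3.3 (8 residual and 4.46 prior degrees of freedom). Adjusted p-values are Benjamini-Hochberg over 12280 genes, and errors are standard errors unless SD is given. Precision is limited by the number of arrays. The members, lists and rules were chosen with earlier results of these data known. Values on every array are given for many, not all, of the members that passed without overlap, up to 10 a class and comparison, and for markers such as Mki67. Of the other lists, up to 4 genes a comparison with the largest differences are named. Replicate numbers did not pair the samples, since deviations of same-numbered arrays correlated at -0.13 to 0.12 over 18 pairs. The fit was tested on simulated data, and 13 alternatives were tried.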

Additional observations from a re-analysis of the deposited data

Results flagged for a closer look

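For 3 of the 59 genes, all of G1 control, the difference between day 6 and day 4 was not the same in the lines by a test of that difference, the interaction in limma with Benjamini-Hochberg adjustment over all genes. For Ccnd2 the change in CAG150 minus that in HM1 was -1.56 ± 0.12 on the log2 scale (adjusted p = 3.6e-05). In HM1 every array of day 6 read above every array of day 4, and in CAG150 the days overlapped. For Ccnd1 it was -0.76 ± 0.15 (adjusted p = 0.014), with the fall in CAG150. For Cdk6 it was -0.67 ± 0.13 (adjusted p = 0.015), with the rise in HM1. Of all genes tested, 3.61% passed this test. Smooth muscle and fibroblast markers also moved apart between the lines from day 4 to day 6, since 5 of the 10 tested passed the interaction, all with the lower change in CAG150. By the same test, 3 of 16 neuron markers had the higher change in CAG150. There, 2 of 12 neural progenitor markers and 1 of 9 endoderm markers had the lower change, and 0 of 13 pluripotency markers passed. The part of these cells in the values of these G1 genes was not tested.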

How the results depend on the processing

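Of 91 member calls, 61 kept their call under the alternatives run for them. Among them were the interactions of Ccnd1, Ccnd2 and Cdk6, for which a fit of 2 groups alone cannot be made. The other 30 were lost without 1 array (23) or under another alternative (26), and some of them under both. The cause was not tested. Depth is set by signal: E2f2, Cdkn2c, Rbl2 and Tyms were dim. Members passing between the lines at day 4 (7) were 4 with arrays centred on their medians, 11 with an intensity trend in eBayes and 3 to 8 without 1 array. Centring gave class medians of -0.051 (S phase) and -0.033 (mitotic) between the lines at day 4, -0.15 and -0.091 at day 6, 0.083 (G1), -0.49 (S phase) and -0.31 (mitotic) with days in HM1, and -0.22, -0.50 and -0.37 in CAG150. Quantile normalization gave 0.080 for mitotic genes at day 4, -0.0047 for S phase genes at day 6 and -0.16 for mitotic genes with days in HM1. Averaging the probe sets of each gene gave -0.0077 for G1 and 0.0040 for S phase genes at day 6, -0.0042 for G1 genes with days in CAG150, and turned Cenpa in HM1 to 0.10. Without chromosomes 8 and 11, S phase genes were at -0.060 at day 4 and -0.33 with days in HM1. Without 1 array, class medians ran from -0.047 to 0.022 (S phase, day 4), -0.020 to 0.13 (G1, day 6), and -0.25 to -0.12 (mitotic, days in HM1). In the interaction they ran from -0.12 to 0.053 (G1), -0.091 to -0.0066 (S phase) and -0.096 to -0.026 (mitotic).

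With the replicate block, 7 members passed between the lines at day 4, 12 at day 6, 30 with days in HM1, 40 in CAG150 and 4 in the interaction. It ended both Mki67 calls (0.28, adjusted p = 0.054, and 0.26, adjusted p = 0.066). With genes kept above the 60th percentile, the members that passed were 9, 12, 32, 43 and 4. Calls of named genes that were lost numbered 11 without the filter, 10 under quantile normalization, 9 with centred arrays and 9 with the 2 groups alone. With averaged probe sets 10 were lost, and besides these the call of Cenpa in HM1 was lost with its sign turned.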
